A study of Mus musculus with 32 samples.

Results

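The IL-33 and type 2 cytokine axis was followed here through 10 genes in a bulk RNA-seq study of mouse mesothelioma: the cytokines Il33, Tslp, Il4, Il5 and Il13, the receptor chains Il1rl1, Il4ra, Il13ra1 and Il13ra2, and the transcription factor Gata3. They were taken by symbol from a table of 39676 genes. A row was found for 9 of the 10, and Tslp was not analysed here. The table held 32 untreated tumors, 8 mice in each of 4 groups, harvested at day 10. AB1 mesothelioma cells (500000) were placed in BALB/c mice and AE17 mesothelioma cells (1000000) in C57BL/6 mice, each either into the pleural space in 200 uL (intrapleural, IPL) or under the skin of the flank in 100 uL (subcutaneous, SC). All mice were female and 8 to 10 weeks old. Each model is 1 transplanted cell line in an immunocompetent host of matching strain, so cell line, strain, cell number and sequencing lane cannot be told apart between the models. The IPL tumors were cut free of lung and neighboring tissue before RNA was taken.

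IL-33 is an alarmin of the IL-1 family that is stored in the nucleus of stromal, endothelial and epithelial cells and released on damage. It binds ST2, the product of Il1rl1, which is carried by mast cells, group 2 innate lymphoid cells, Th2 cells and a share of regulatory T cells. These cells then make IL-5, which sustains eosinophils, and IL-13, which with IL-4 acts through IL-4Rα (Il4ra) and IL-13Rα1 (Il13ra1) on macrophages and stroma, whereas IL-13Rα2 (Il13ra2) binds IL-13 with high affinity and is itself induced by it. GATA3 is the transcription factor that defines type 2 lymphocytes and drives Il5 and Il13.

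Libraries held between 15432258 and 20649645 counts, so that 3 counts, the limit a count of 0 allows, correspond to 0.145 to 0.194 counts per 1000000 counts (CPM). Sequencing lane was partly tied to site: all 8 AB1 IPL libraries ran on lane 3 against 2 of 8 AB1 SC libraries, and all 8 AE17 SC libraries ran on lane 1 against 3 of 8 AE17 IPL libraries. Values within 1 lane are therefore given for each member that could be fitted there, and as counts of calls for most gene lists. Between the models no lane was shared at either site: SC libraries ran on lanes 2 and 3 for AB1 and on lane 1 for AE17, and IPL libraries on lane 3 for AB1 and on lanes 1 and 2 for AE17. The libraries with the lowest median correlation with their own group were AB1 IPL 2 (0.951), AB1 IPL 4 (0.955) and AE17 IPL 5. Mesothelial markers (Wt1, Upk3b, Lrrn4 and Krt19) were low in AB1 tumors, summing to between 0.379 and 3.25 CPM in all but AB1 IPL 2, which held 76.1 CPM. The same sum ran from 1.72 to 21.5 CPM in AE17 IPL and from 0.303 to 10.7 CPM in AE17 SC. In bulk tissue, fewer cells of a type and less RNA per cell cannot be told apart.

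RefSeq promoter windows on GRCm38.p6 were matched for all 9 genes, in 12 windows since some genes have more than 1 start. The 250 bases before the start are shown for Il33, the ligand at the head of the axis, and for its receptor Il1rl1, for Il13 and for the IL-13 decoy receptor Il13ra2, which were lower in AB1 IPL than SC tumors. Il1rl1 is shown at both starts, the upstream one being used for membrane ST2 in mast cells and Th2 cells and the downstream one for soluble ST2 in fibroblasts. Capitals mark the GATA words on either strand (AGATAA and the forms with another first or last letter, which are AGATAG as well as TGATAA and likewise TGATAG), or in Il33 the STAT6 word TTCNNNNGAA, and each sequence runs 5′ to 3′ along the strand of its gene.
Il33, chr19:29924863-29925112 (+): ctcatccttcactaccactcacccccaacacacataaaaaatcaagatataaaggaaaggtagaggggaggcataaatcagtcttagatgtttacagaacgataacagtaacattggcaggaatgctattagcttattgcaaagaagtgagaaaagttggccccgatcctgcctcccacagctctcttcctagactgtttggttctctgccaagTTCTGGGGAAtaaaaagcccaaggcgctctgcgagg
Il1rl1 upstream start, chr1:40429320-40429569 (+): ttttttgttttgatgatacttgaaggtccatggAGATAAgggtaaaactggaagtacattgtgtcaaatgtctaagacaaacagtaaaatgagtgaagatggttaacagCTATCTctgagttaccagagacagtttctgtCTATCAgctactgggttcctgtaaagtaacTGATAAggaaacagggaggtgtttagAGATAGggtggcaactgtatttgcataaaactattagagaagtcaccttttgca
Il1rl1 downstream start, chr1:40439379-40439628 (+): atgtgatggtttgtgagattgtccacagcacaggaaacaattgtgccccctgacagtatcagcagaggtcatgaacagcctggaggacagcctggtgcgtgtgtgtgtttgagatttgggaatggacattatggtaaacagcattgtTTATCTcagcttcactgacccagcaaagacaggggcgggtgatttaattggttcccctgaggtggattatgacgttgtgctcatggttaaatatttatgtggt
Il13, chr11:53634703-53634952 (-): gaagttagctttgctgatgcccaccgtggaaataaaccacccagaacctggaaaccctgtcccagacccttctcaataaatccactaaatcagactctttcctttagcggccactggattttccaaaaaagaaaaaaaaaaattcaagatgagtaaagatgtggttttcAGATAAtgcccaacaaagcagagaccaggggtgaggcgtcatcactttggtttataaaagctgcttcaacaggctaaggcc
Il13ra2, chrX:147429193-147429442 (-): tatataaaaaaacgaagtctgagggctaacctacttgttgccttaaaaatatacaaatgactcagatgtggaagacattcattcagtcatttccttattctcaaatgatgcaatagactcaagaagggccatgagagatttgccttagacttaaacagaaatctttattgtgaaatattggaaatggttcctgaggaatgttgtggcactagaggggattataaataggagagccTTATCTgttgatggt

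The upstream Il1rl1 window held 5 GATA words and the downstream window 1. Among 32851 windows of this length, 26.5% held at least 1 such word, 1.35% held 3 or more and 0.21% held 4 or more. Il13 and Il13ra2 held 1 word each, as did Il5, and the Il33 window shown held 1 STAT6 word, which 5.85% of windows contain. The window at the second Il33 start held neither word. Il4 held 1 STAT6 word at its first start and 1 GATA word at its second. Il4ra, Il13ra1 and Gata3 had neither word in these bases. The table counts reads per gene, so the transcripts from the 2 Il1rl1 starts were not separated.

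Per kb of exon, Il1rl1, Il4ra, Il13ra1 and Il33 had the 4 highest mean levels among the members in every group. In AB1 SC tumors the mean level was highest for Il1rl1 at 73.3 CPM per kb, followed by Il4ra at 32.5, Il13ra1 at 21.8 and Il33 at 17.8. Il13ra2 followed at 4.75 CPM per kb, Gata3 at 2.43, Il4 at 1.44, Il13 at 1.18 and Il5 at 0.190. In AE17 SC tumors Il13ra1 was first at 63.5 ± 10.4 CPM per kb and Il4ra second at 40.8 ± 7.56 (SD, n = 8). Il1rl1 (21.5 ± 4.73) and Il33 (21.4 ± 11.9) then had means closer together than their SDs, as did Il4 (1.11 ± 0.172) and Gata3 (1.11 ± 0.284). Il13ra2 at 0.252, Il5 at 0.0965 and Il13 at 0.0246 CPM per kb were the lowest there.

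**Figure D1:**
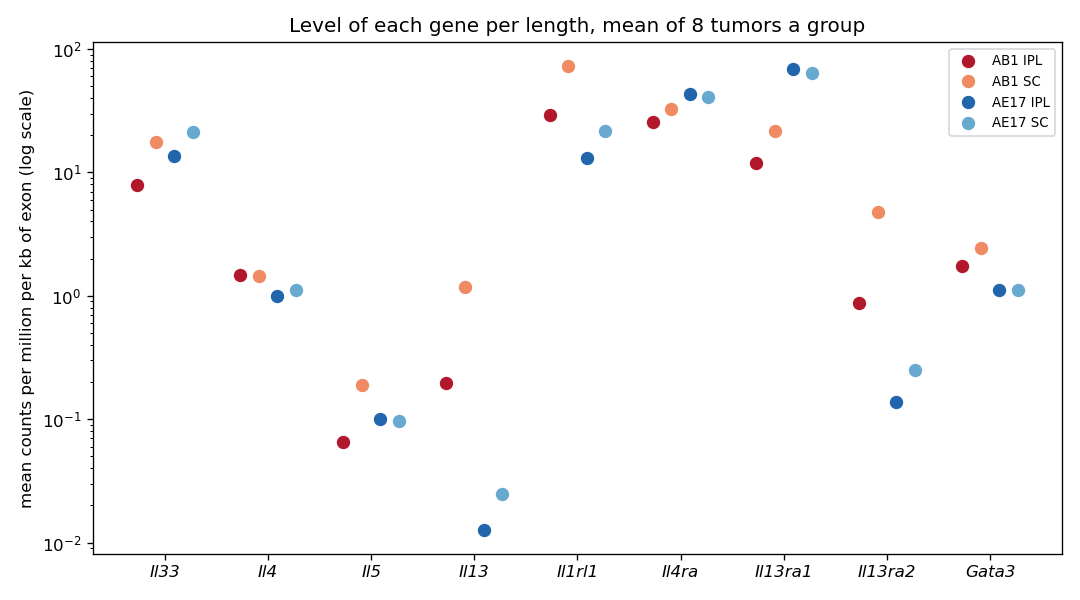
Mean level of each gene in CPM per kb of exon (log axis), 1 point for each group of 8 tumors. Il1rl1 tops the AB1 SC group at 73.3 and Il13ra1 the AE17 SC group at 63.5, while Il13 spans from 0.0126 in AE17 IPL to 1.18 in AB1 SC.

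Site effects were asked within each model as IPL against SC with the quasi-likelihood test of edgeR over all genes. In AB1 tumors 5 of the 7 genes that passed the filter on low counts were lower in IPL than SC tumors and none was higher: Il33, Il1rl1, Il13ra1, Il13ra2 and Gata3. Over all genes tested in AB1, 23% were called in either direction and 10.7% were called lower in IPL. In AE17 tumors 1 of 6 tested genes was called, Il1rl1, also lower in IPL, beside 5.73% of all genes called in either direction and 3.13% called lower. Within 1 lane (8 AB1 IPL against 2 AB1 SC mice, and 3 AE17 IPL against 8 AE17 SC mice), 0 members were called in either model. In those fits 5 AB1 members of 8 tested and 1 AE17 member of 7 had an unadjusted p under 0.05, beside 12.6% and 14.6% of all genes. Il13, which failed the filter in all AB1 mice, passed it there through the 2 SC tumors of lane 3 (11 and 33 counts).

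**Figure D2:**
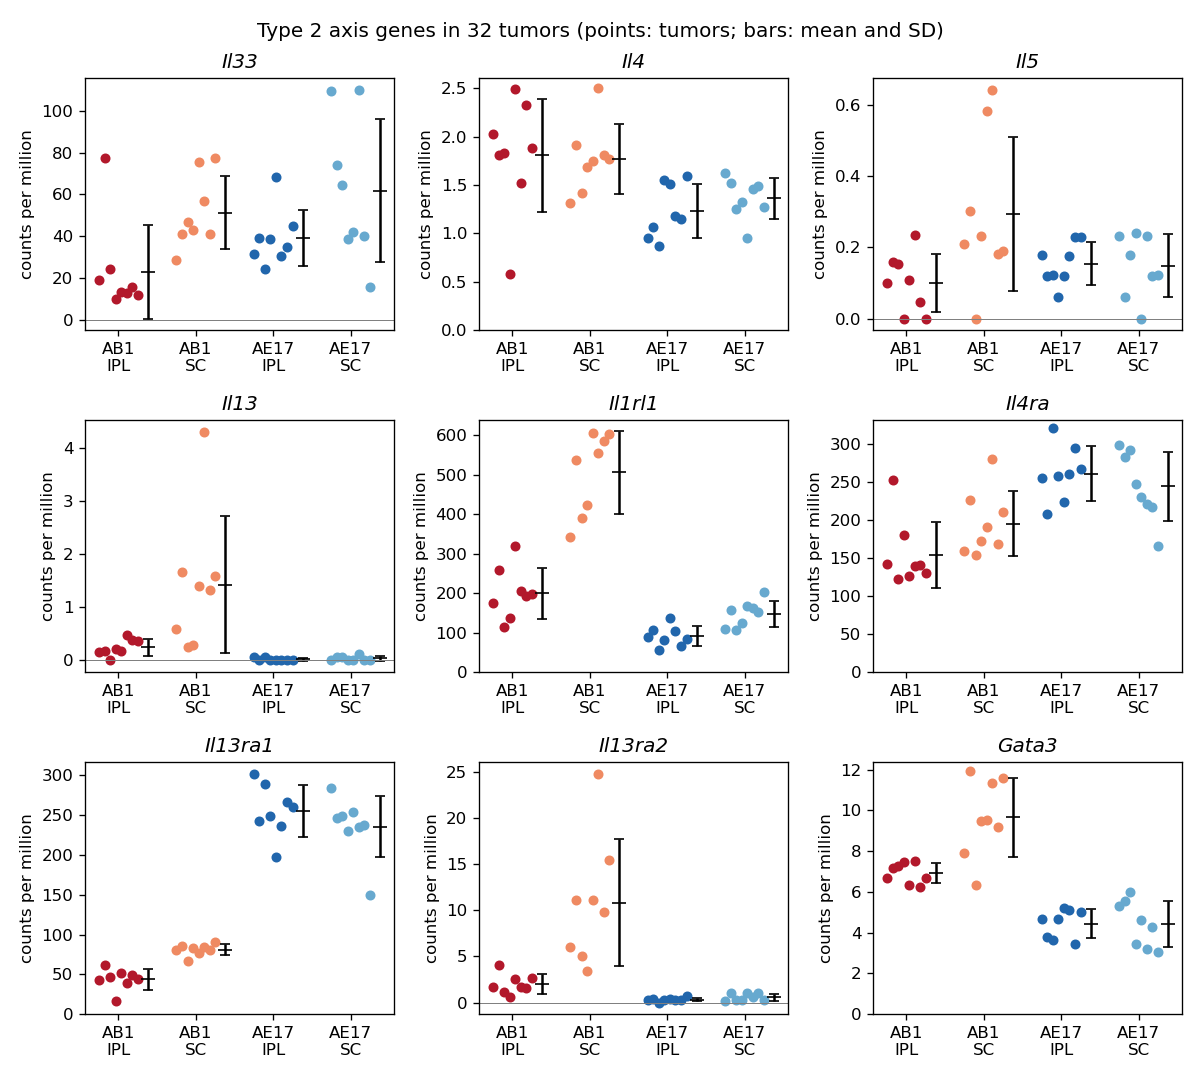
CPM of the 9 genes in each of 32 tumors (points), with mean and SD (bars, n = 8 a group). Every AB1 IPL tumor lies below every AB1 SC tumor for Il1rl1 (highest IPL 319, lowest SC 343) and Il13ra1 (61.3 and 66.9), and Il13 is near 0 in all 16 AE17 tumors.

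Il33, on chromosome 19 at 29925114-29960718 (+ strand, GRCm38, as are all gene positions here), was lower in the AB1 pleura. AB1 IPL tumors ran from 9.83 to 77.4 CPM with a median of 14.2, and AB1 SC tumors from 28.4 to 77.4 with a median of 44.9. Only AB1 IPL 2 reached the SC range, and the other 7 IPL tumors lay below every SC tumor. The level fell by 1.17 on the log2 scale (SE 0.39, adjusted p = 0.0357, edgeR), and the exact permutation test gave p = 0.00342 (adjusted over all genes, 0.0250). AB1 IPL 2 was also the tumor with 76.1 CPM of mesothelial markers. Its sums were the highest of its group for fibroblast (28450 CPM, group median 15340), macrophage (2938, median 1900) and endothelial genes (199.4, median 160.5) as well. Its skeletal muscle sum of 100.5 CPM was the lowest of the group. Without AB1 IPL 2 the log2 difference was -1.75 (adjusted p = 7.41e-05), and without the 3 libraries least like their group it was -1.70 (adjusted p = 0.000210).

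The Il33 call in AB1 was lost in 10 of 16 fits that left out 1 mouse, with adjusted p from 0.0538 to 0.0726, namely those without AB1 IPL 1, 3, 4, 5, 6, 7 or 8 or AB1 SC 5, 6 or 8. It was also lost without the filter on low counts (-1.16, adjusted p = 0.0826) and with lane in the model (-0.61, adjusted p = 0.651). Within lane 3 the difference was -0.66 (adjusted p = 0.755), where the 2 SC tumors of that lane held 28.4 and 40.9 CPM. In AE17, IPL tumors ran from 24.2 to 68.3 CPM (median 36.8) and SC tumors from 15.6 to 110 (median 53.2). These ranges overlapped throughout, and the log2 difference of -0.66 (SE 0.33, adjusted p = 0.215) did not pass the test. It was -0.76 (adjusted p = 0.462) within lane 1.

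Il4, on chromosome 11 at 53602982-53618669 (- strand), encodes the cytokine that starts Th2 differentiation and did not separate the sites. It held 11 to 50 counts in AB1 IPL and 24 to 43 in AB1 SC tumors, or medians of 1.86 and 1.76 CPM. In AE17 the medians were 1.16 CPM in IPL (range 0.865 to 1.59) and 1.39 CPM in SC tumors (0.949 to 1.63). The sites overlapped in both models, with log2 differences of 0.02 (SE 0.22, adjusted p = 0.969) in AB1 and -0.14 (SE 0.16, adjusted p = 0.620) in AE17. Within 1 lane they were 0.11 (adjusted p = 0.943) and -0.06 (adjusted p = 0.904).

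Il13, next to Il4 on chromosome 11 at 53631324-53634702 (- strand), was near the limit of detection in AE17 and above it in AB1 SC tumors. AB1 SC tumors held 4 to 74 counts (median 23, or 1.36 CPM) and AB1 IPL tumors 0 to 8 counts (median 3.5, or 0.186 CPM). All 8 IPL tumors were below the SC median, and 5 were below every SC tumor. Il13 failed the filter on low counts. Without that filter it was lower in IPL by a log2 difference of -2.56 (SE 0.58, adjusted p = 0.00620, edgeR), and the exact permutation test gave p = 0.00311 (adjusted p = 0.0234). Within lane 3, where Il13 passed the filter through the 2 SC tumors alone, the difference was -2.29 (adjusted p = 0.176). AE17 tumors held at most 2 counts each, 2 in all over the IPL and 4 over the SC group, which is 0.0145 CPM (exact 95% Poisson interval 0.00175 to 0.0522) and 0.0295 CPM (0.00804 to 0.0755). These intervals cover counting error only, and no site difference in Il13 was detectable at this depth in AE17.

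Il5, on chromosome 11 at 53720794-53725106 (+ strand), is the eosinophil growth factor and was at the limit of detection. AB1 SC tumors held 0 to 11 counts (41 in all), AB1 IPL tumors 0 to 4 (15 in all), and the AE17 groups 20 and 21 in all. Among AB1 IPL tumors, 7 of 8 were below the SC median, but none was below every SC tumor. The exact permutation test gave p = 0.0392 in AB1, with an adjusted p of 0.133, and the edgeR test without filter an adjusted p of 0.0996. It could not be fitted within 1 lane, where it failed the filter. The gene overlaps an antisense gene, Gm12214, and the strand setting of the counting was not given in the sources used here.

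Il1rl1, on chromosome 1 at 40429570-40465415 (+ strand), encodes the IL-33 receptor ST2 and was lower in the pleura of both models. AB1 IPL tumors ran from 113 to 319 CPM (median 194.9) and AB1 SC tumors from 343 to 607 (median 546). The groups did not overlap. The level in AB1 IPL was 0.390 times that in SC, a log2 difference of -1.36 (SE 0.19, adjusted p = 9.09e-05, edgeR), and the exact permutation test gave 0.000155, the smallest p it can give (adjusted p = 0.00420). Across all genes with a permutation test in AB1, 1.86% had every IPL tumor below every SC tumor. With lane in the model the difference was -1.16 (adjusted p = 0.0312), the only member called there, and within lane 3 it was -1.20 (adjusted p = 0.132).

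In AE17, Il1rl1 was at a lower level, with 55.7 to 137 CPM in IPL (median 86.6) and 107 to 203 CPM in SC tumors (median 154.7). All 8 IPL tumors were below the SC median and 6 were below every SC tumor, so the groups overlapped. In 0.234% of all genes in AE17 all 8 IPL tumors lay below every SC tumor, and no member was among them. The log2 difference was -0.71 (SE 0.17, adjusted p = 0.0273, edgeR), with an exact permutation p of 0.00202 (adjusted p = 0.0679). Within lane 1 it was -0.81 (adjusted p = 0.185). The call was lost without AE17 IPL 4 or 7 or AE17 SC 5 or 7, with adjusted p from 0.0512 to 0.0580, and without the filter on low counts (0.0512).

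Il4ra, on chromosome 7 at 125552120-125579474 (+ strand), encodes the chain shared by the IL-4 and IL-13 receptors. AB1 IPL tumors ran from 122 to 253 CPM (median 140.0) and AB1 SC tumors from 154 to 280.5 (median 181.5). 6 of the 8 IPL tumors lay below every SC tumor, and AB1 IPL 2 was the highest of its group. The log2 difference of -0.35 (SE 0.16) had an adjusted p of 0.116, and it was -0.48 (adjusted p = 0.0101) without AB1 IPL 2 and -0.39 (adjusted p = 0.585) within lane 3. AE17 tumors held 208 to 321 CPM in IPL and 166 to 299 in SC, with a log2 difference of 0.10 (SE 0.11, adjusted p = 0.636), and of 0.16 (adjusted p = 0.615) within lane 1. Gm44876, an antisense gene, overlaps Il4ra.

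Il13ra1, on chromosome X at 36112110-36171259 (+ strand), encodes the partner of IL-4Rα that binds IL-13. It was the only member called when site effects were compared between the models, a call lost with lane in the model. AB1 IPL tumors ran from 16.3 to 61.3 CPM (median 45.1) and AB1 SC tumors from 66.9 to 90.7 (median 82.0), with no overlap. The log2 difference was -0.90 (SE 0.17, adjusted p = 0.00120), and the exact permutation p was again the smallest possible, 0.000155. Within lane 3 it was -0.98 (adjusted p = 0.245). AE17 tumors ran from 198 to 302 CPM in IPL and from 149.8 to 284 in SC, an overlap with a log2 difference of 0.12 (SE 0.10, adjusted p = 0.512), and of 0.11 (adjusted p = 0.739) within lane 1.

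Il13ra2, on chromosome X at 147383476-147429192 (- strand), encodes the decoy receptor for IL-13 and had the largest log2 difference of the 7 members tested in AB1. AB1 IPL tumors held 11 to 77 counts (0.578 to 4.09 CPM, median 1.71) and AB1 SC tumors 59 to 425 (3.43 to 24.8 CPM, median 10.4). 7 of 8 IPL tumors were below every SC tumor. The log2 difference was -2.45 (SE 0.40, adjusted p = 0.000374, edgeR), the exact permutation p was 0.000311 (adjusted p = 0.00577), and the within-lane difference was -2.15 (adjusted p = 0.0807). In AE17 the gene failed the filter, at 0 to 12 counts in IPL and 3 to 17 in SC tumors, and the exact permutation test gave p = 0.154. The difference within lane 1, where it passed the filter, was -0.51 (adjusted p = 0.707).

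Gata3, on chromosome 2 at 9857078-9890034 (- strand), was lower in AB1 IPL tumors by a smaller step. They ran from 6.23 to 7.53 CPM (median 6.93) and AB1 SC tumors from 6.36 to 11.9 (median 9.51). Every IPL tumor was below the SC median, although 2 alone lay below every SC tumor. The log2 difference was -0.50 (SE 0.12, adjusted p = 0.00584), and -0.58 (adjusted p = 0.176) within lane 3. AE17 IPL tumors (3.45 to 5.19 CPM) and SC tumors (3.03 to 5.98 CPM) overlapped, with a log2 difference of 0.01 (SE 0.16, adjusted p = 0.979), and of 0.03 (adjusted p = 0.969) within lane 1. Exons of 9230102O04Rik and Gm13256 overlap those of Gata3.

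**Figure D3:**
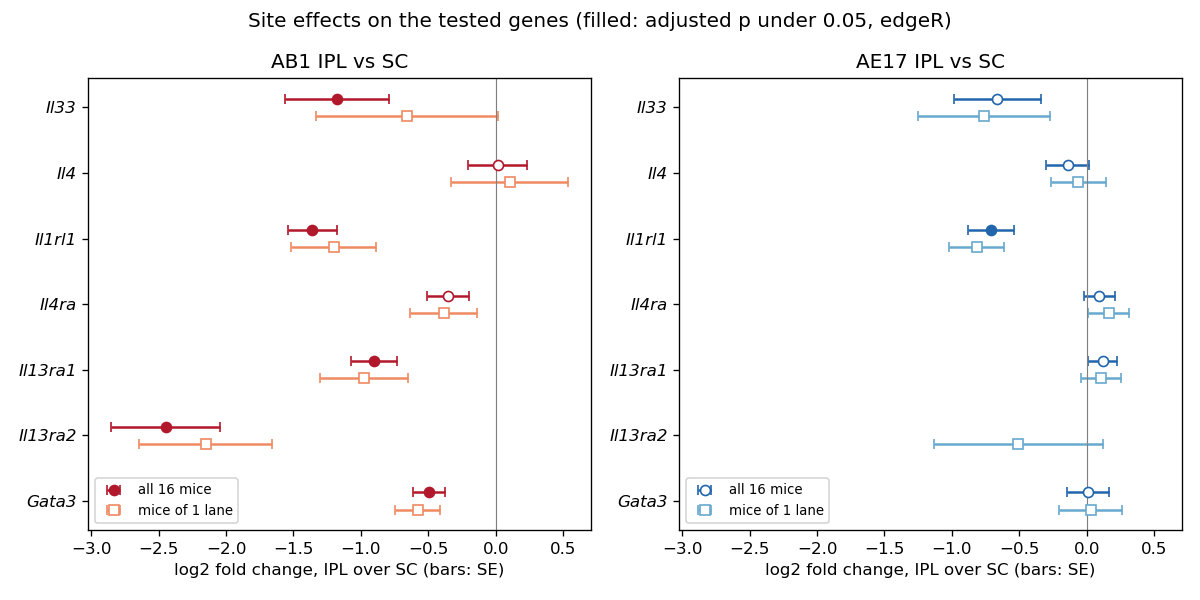
Log2 fold change of IPL over SC with SE for AB1 (left) and AE17 (right), in all 16 mice (circles) and in mice of 1 lane (squares). Filled points pass an adjusted p of 0.05 in edgeR. In AB1, Il33, Il1rl1, Il13ra1, Il13ra2 and Gata3 are filled in all mice and none is filled within a lane, while in AE17 Il1rl1 at -0.71 is the filled point.

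Whether the site effects differed between models was tested as an interaction over all 32 tumors, in which 20.5% of all genes were called. Among 7 members tested, only Il13ra1 was called, with a site effect in AB1 that was lower than in AE17 by a log2 difference of -1.003 (SE 0.21, adjusted p = 0.00139). The difference was -1.03 with lane in the model (adjusted p = 0.0880). For the other 6 the interaction did not pass the test. Its size was -0.63 for Il1rl1 (adjusted p = 0.0836), -1.59 for Il13ra2 (0.0890), -0.49 for Gata3 (0.0746) and -0.43 for Il4ra (0.127). It was -0.50 for Il33 (SE 0.52, adjusted p = 0.553) and 0.15 with lane in the model, so the site effect on Il33 was not shown to differ between the models. Leaving out 1 mouse brought further calls: Il1rl1 without AB1 IPL 5 or AE17 IPL 3 (adjusted p = 0.0271 and 0.0481), Il13ra2 without AB1 IPL 2 or AE17 IPL 3 (0.0473 each), Gata3 without AB1 SC 3 or AE17 SC 3 (0.0324 and 0.0337) and Il4ra without AB1 IPL 2 (0.0189). Il13ra2, which failed the filter within AE17, passed it in this fit through the AB1 tumors.

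Most of the genes tested differed between the models, which shared no sequencing lane at either site, so the counts of members called are not particular to the axis. Compared with AE17 at the same site, AB1 tumors had more Il1rl1, Il13ra2 and Gata3 and less Il13ra1 and Il4ra. Between SC tumors 5 of 7 members were called, where 58.3% of all genes were. Il13ra2 failed the filter on low counts within AE17 and passed it in this fit of 4 groups through the AB1 tumors. The log2 difference, AB1 over AE17, was 4.23 for Il13ra2 (SE 0.45, adjusted p = 1.36e-09), 1.77 for Il1rl1 (SE 0.19, adjusted p = 1.22e-09) and 1.13 for Gata3 (SE 0.14, adjusted p = 2.54e-08). It was -1.54 for Il13ra1 (SE 0.15, adjusted p = 2.44e-10) and -0.32 for Il4ra (SE 0.14, adjusted p = 0.0482). The Il4ra call was lost with DESeq2 (adjusted p = 0.0514) and in 18 of 32 fits without 1 mouse, with adjusted p up to 0.1097. These were the fits without AB1 IPL 1, 6 or 7, AB1 SC 1, 3, 4, 5 or 7, AE17 IPL 1, 4, 6, 7 or 8, or AE17 SC 1, 2, 3, 4 or 5. Il4 did not pass (0.37, adjusted p = 0.0962), but did without AB1 IPL 4 (0.37, adjusted p = 0.0303).

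Between IPL tumors 6 of 7 members were called, beside 63.4% of all genes. Il13ra2 again passed the filter through the AB1 tumors, with 43 counts in all over the AE17 IPL group. Il13ra1 was lower in AB1 by a log2 difference of -2.54 (SE 0.16), Il13ra2 higher by 2.64 (SE 0.47), Il1rl1 higher by 1.14 (SE 0.19) and Il4ra lower, at -0.76 (SE 0.14), with adjusted p of at most 2.63e-05 in edgeR. Gata3 was higher by 0.64 (adjusted p = 0.000175) and Il4 by 0.55 (SE 0.19, adjusted p = 0.0139). Il33 did not pass at either site, at -0.27 (adjusted p = 0.547) in SC and -0.77 (adjusted p = 0.0741) in IPL tumors, although the latter was -1.37 (adjusted p = 0.000298) without AB1 IPL 2.

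Other ligands, receptor chains and signaling genes of the same pathways were lower or did not pass the test in AB1. Of 32 such genes listed, 24 had a row and 20 were tested, and 9 fell, none rose and 11 did not pass. Their median log2 difference was -0.23, against -0.00 over all genes tested. Of all genes tested in AB1, 10.7% were called lower in IPL. Csf2, encoding the myeloid growth factor GM-CSF, fell by 2.30 on the log2 scale (adjusted p = 7.77e-06), from 1.55 ± 0.389 to 0.313 ± 0.113 CPM (SD, n = 8 each). Cish, a STAT5-induced suppressor of cytokine signaling, fell by 1.55 (adjusted p = 0.000445), and Il1rap, the second chain of the IL-33 receptor, fell by 0.92 (adjusted p = 0.00284). In AE17 0 of 21 were called by edgeR (up to 2 without 1 mouse), 2 by DESeq2 and 5 by limma voom. Il1rap was there at 74.0 ± 10.4 CPM in IPL and 69.7 ± 7.19 CPM in SC tumors. The AB1 count was 3 with lane in the model, 3 within lane 3 and 14 of 21 without the 3 libraries least like their group, and the AE17 count was then 1.

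Genes that IL-4 or IL-13 induce in macrophages and stroma were mostly lower in AB1 IPL tumors. Of 24 listed, 21 had a row and 20 were tested in AB1, where 15 fell, none rose and 5 did not pass, with a median log2 difference of -1.65. Calls lower in IPL made up 10.7% of all genes tested in AB1. Pdcd1lg2, encoding the PD-1 ligand PD-L2, fell by 3.82 (SE 0.31, adjusted p = 1.18e-06), from 45.5 ± 19.8 to 3.25 ± 1.31 CPM. Slc7a2, an arginine transporter, fell by 3.04 (SE 0.31, adjusted p = 1.03e-05), from 69.0 ± 33.0 to 8.46 ± 3.50 CPM. The eosinophil chemoattractant gene Ccl24 fell by 2.60 (SE 0.69, adjusted p = 0.0107). The count was 8 of 20 with lane in the model and 11 of 21 within lane 3. The share of all genes called under these settings at this threshold is not given here. Itgax on this list encodes CD11c, which dendritic cells carry as well.

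In AE17 the same list divided. Of 19 genes tested 6 fell, 1 rose and 12 did not pass, with a median of -0.32. Over all genes tested in AE17, 5.73% were called, 3.13% of them being lower in IPL as a share of all tested. Ccl17, a chemoattractant of CCR4-bearing T cells, fell by 2.27 (adjusted p = 0.00632), and the eotaxin gene Ccl11 fell by 1.81 (adjusted p = 0.0255). Alox15, a lipoxygenase that IL-4 induces, rose by 2.08 (adjusted p = 0.0470), from 0.892 ± 0.465 CPM in SC to 3.78 ± 2.50 CPM in IPL tumors. The AE17 count was 0 with lane in the model and 0 within lane 1. The interaction test called 20.5% of all genes. By that test the site effect was lower in AB1 than in AE17 for 9 of 20 list genes and higher for none. These were led by Slc7a2 (-3.62, adjusted p = 6.89e-06), Alox15 (-3.22, adjusted p = 0.00419) and Pdcd1lg2 (-3.10, adjusted p = 0.000104).

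**Figure D4:**
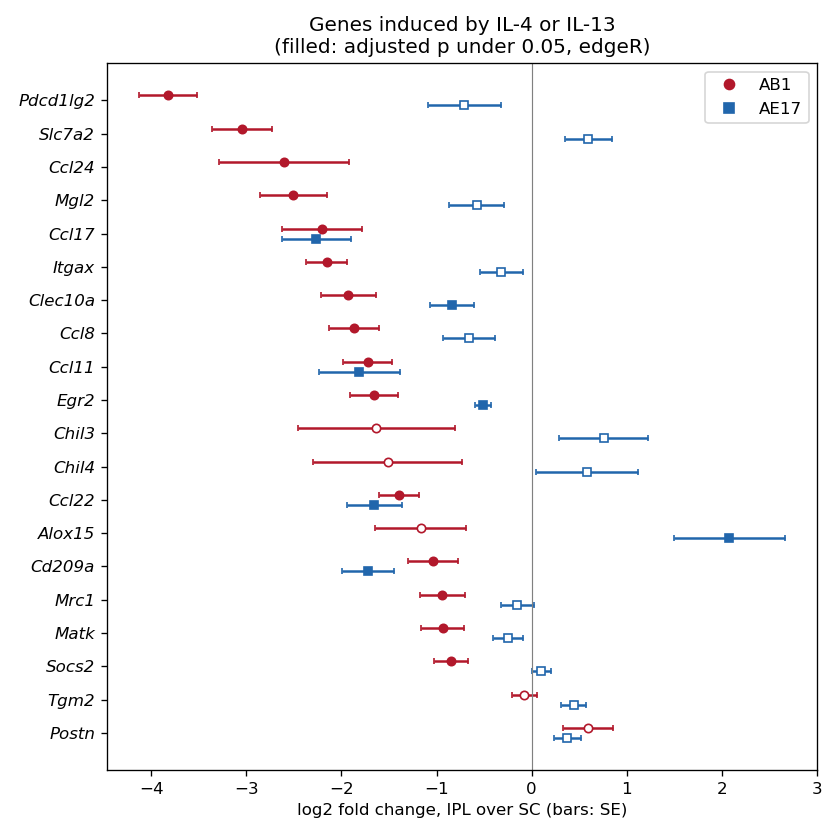
Log2 fold change of IPL over SC with SE for genes induced by IL-4 or IL-13, in AB1 (circles) and AE17 (squares), with filled points past an adjusted p of 0.05 in edgeR. Pdcd1lg2 and Slc7a2 lie at -3.82 and -3.04 in AB1, Ccl17 is at -2.27 in AE17, and Alox15 at 2.08 is the filled point right of 0.

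Markers of the cells that carry ST2 or answer to the axis were read from lists, and the part of these cells in the results was not tested. The counts below stand beside 23% of all genes called in AB1 (10.7% lower in IPL) and 5.73% in AE17 (3.13% lower). The lists share a few genes, so that some calls count under more than 1 of them: Il2ra (ILC2 and Th2 cells, regulatory T cells), Fcer1a (mast cells, basophils), Il17rb (pathway, ILC2 and Th2 cells) and Il5ra (pathway, eosinophils). Of 12 tested genes of ILC2 and Th2 cells 7 fell in AB1 and 2 in AE17, none rising in either. The AE17 count was 5 with DESeq2 and 6 with limma voom. It was 1 without AE17 IPL 1, 2, 3, 4 or 7 or AE17 SC 2 or 5, and 4 without AE17 IPL 5 or AE17 SC 1 or 3. Icos, a T cell costimulator, fell by 2.39 in AB1 (adjusted p = 1.38e-07) and by 1.49 in AE17 (adjusted p = 0.0288), and Il2ra, the high-affinity IL-2 receptor chain, fell by 2.01 (adjusted p = 9.50e-07) and 1.16 (adjusted p = 0.0129). Ccr4, the receptor for CCL17, fell by 1.52 in AB1 (adjusted p = 0.00159). Nmur1, a neuromedin receptor of ILC2, was near the limit of detection throughout, with 4 counts in all over the AB1 SC group, 1 over AE17 IPL and 0 in the AB1 IPL and AE17 SC tumors. For regulatory T cells 7 of 8 genes fell in AB1 and 3 of 8 in AE17, among them Foxp3 in both (-1.21, adjusted p = 1.34e-05, and -1.63, adjusted p = 0.0248).

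Mast cells are rich in ST2, and 6 of 8 mast cell genes fell in AB1 and 3 of 8 in AE17. The AE17 count was 5 with DESeq2 and 6 with limma voom. It was 1 without AE17 IPL 3, 4, 6 or 7 or AE17 SC 2, 5 or 7, and 5 without AE17 SC 8. Their summed level ran from 76.7 to 245.7 CPM in AB1 IPL and from 261.5 to 549 in AB1 SC tumors without overlap, and from 48.0 to 149 in AE17 IPL and 91.0 to 314 in AE17 SC tumors. Mrgprb1 fell by 2.22 in AB1 (adjusted p = 0.00162) and by 1.44 in AE17 (adjusted p = 0.0470), and Ms4a2, a chain of the IgE receptor, by 2.16 (adjusted p = 0.000301) and 1.51 (adjusted p = 0.0404). Kit, the stem cell factor receptor, fell by 0.94 in AE17 (adjusted p = 0.0159). Both basophil genes tested, Cd200r3 and Fcer1a, fell in AB1 and Cd200r3 in AE17. The AB1 count ran from 0 to 2 over the other settings and was 2 in each fit without 1 mouse. Of 8 eosinophil genes 4 passed the filter on low counts in each model, and 3 of the 4 fell (2 to 4 in AB1 without 1 mouse, and 0 with lane in the model in both). The sets differed: Ccr3, Ear1, Ear2 and Siglecf were tested in AB1 and Ccr3, Ear1, Ear2 and Il5ra in AE17. Ear2 (-2.38 and -2.40), whose family members share much sequence, and Ccr3 fell in both. Siglecf fell in AB1 and Ear1 in AE17, while Ear1 did not pass in AB1 (-0.28, adjusted p = 0.816, edgeR). The granule genes Prg2 and Epx were among those not tested and had higher values in AB1 IPL tumors. Prg2 ran from 0.233 to 46.5 CPM in IPL (median 3.35) and from 0.118 to 0.757 CPM in SC tumors (median 0.355), and Epx from 0 to 11.04 CPM (median 0.627) and from 0 to 0.233 CPM. Ear6 had medians of 0.433 CPM in IPL and 0.332 CPM in SC tumors of AB1, and of 0.119 and 0.604 CPM in AE17. It ran from 0 to 6.67 CPM in AB1 IPL tumors. In the interaction Ear6 was called, with a site effect higher in AB1 than in AE17 by 3.76 (adjusted p = 0.0281).

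Of the T cell list 9 of 9 genes were lower in AB1 IPL tumors and 0 of 9 were called in AE17 by edgeR, where DESeq2 called 2 and limma voom 5. Its sum ran from 32 to 109.5 CPM in AB1 IPL and from 121 to 232 in AB1 SC tumors, and from 83.5 to 217 CPM in AE17 IPL and 20.97 to 217 in AE17 SC tumors. For 8 of the 9 genes the interaction was called, all lower in AB1, beside 20.5% of all genes called in that test. Macrophage genes were called in 2 of 7 (both lower) in AB1, a count that was 0 with lane in the model, 6 with limma voom and 6 without the 3 libraries least like their group. Without 1 mouse it was 4 for AB1 IPL 2 or 4, 2 for AB1 SC 1 or 3, and 0 or 1 for each of the other 12. In AE17 edgeR called 0 of 7 macrophage genes (1 without AE17 SC 1 or 3) and limma voom 5. B cell genes rose in 3 of 5 and fell in 1 of 5 in AB1, and rose in 2 of 4 in AE17, with 0 called in either model with lane in the model. Without 1 mouse the AB1 count ran from 2 (AB1 IPL 2, 3 or 4) to 6 and the AE17 count from 1 (AE17 IPL 8 or AE17 SC 5, 6, 7 or 8) to 4 (AE17 IPL 3 or AE17 SC 3 or 4). With lane in the model the AB1 counts were 2 for ILC2 and Th2 genes, 7 for regulatory T cell, 3 for mast cell and 4 for T cell genes, and within lane 3 they were 2, 5, 1 and 2. In AE17 these 4 lists had 0 calls either way.

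Skeletal muscle genes rose in 6 of 6 in AB1 and 0 of 6 were called in AE17, summing to 100.5 to 4118 CPM in AB1 IPL and 54.9 to 396 in AB1 SC tumors. In AB1 endothelial genes rose in 3 of 6, fibroblast genes rose in 3 of 5 and fell in 1, adipocyte genes rose in 2 of 4 and both heart genes tested rose, and each of these counts was 0 with lane in the model or within lane 3, as was that of muscle genes. Without 1 mouse the AB1 counts ran from 2 to 4 for endothelial, 3 to 5 for fibroblast, 2 to 4 for adipocyte (4 without AB1 IPL 5, 6 or 8) and 2 to 4 for heart genes (4 without AB1 IPL 6). In AE17 both heart genes tested rose, a count that was 1 without AE17 IPL 7, 4 without AE17 IPL 1 or 8 or AE17 SC 1, and 0 with lane in the model. None of the muscle, adipocyte, endothelial or fibroblast genes was called there by edgeR in all 16 mice, whereas limma voom called 2 endothelial and 3 fibroblast genes and DESeq2 1 of each.

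Of the mesothelial, lung and epidermal lists 1, 1 and 2 genes passed the filter in each model, and 1 epidermal gene, Trp63, rose in AB1 (not with lane in the model). In AE17 the mesothelial sum had a median of 10.7 CPM in IPL and 2.99 CPM in SC tumors. The number of mesothelial genes called in AE17 was 0 by edgeR, 3 with DESeq2, 1 with limma voom (Krt19), 3 without the filter and 3 within lane 1, and it was also 3 without AE17 IPL 1 or any 1 of the 8 AE17 SC mice. Where 3 were called they were Wt1, Upk3b and Lrrn4, all higher in IPL tumors. Their median counts in AE17 were 35, 31 and 33.5 in IPL and 1.5, 0 and 1 in SC tumors. In fits with the filter on low counts they could pass it only through the IPL tumors, so the direction of those calls was set by the filter. The shares that muscle and other host tissue had in the lower CPM of Il33, Il1rl1 or their partners were not tested.

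Within the AB1 SC group Il13 and Il13ra2 varied together from tumor to tumor. AB1 SC 6 held the most of both (74 and 425 counts) and also the highest sum of IL-4 and IL-13 induced genes, 3533 CPM against 1121 to 2384 in the other AB1 SC tumors. Its eosinophil markers summed to 119 CPM, against 10.07 to 34.2 in the others. Within the AB1 SC group Ear2 reached 89.75 CPM and Ear1 17.7 CPM, while the granule genes Prg2 and Epx reached 0.757 and 0.233 CPM. AB1 SC 3 and 4 held the least Il13 (4 and 5 counts) and the least Il13ra2 (86 and 59), and their eosinophil sums of 10.07 and 12.1 CPM and response sums of 1121 and 1392 CPM were the lowest of the group. The part of eosinophils in this pattern was not tested. On log2 CPM Pearson r was 0.962 (exact permutation p = 0.000496, adjusted over 106 pairs 0.0486) and Spearman rho 0.905 (exact p = 0.00456, adjusted 0.0968), n = 8. Without the 2 tumors farthest from the Il13 median r was 0.961, and among the 6 tumors on lane 2 it was 0.964. In the AB1 IPL tumors, which held 0 to 8 Il13 counts, the same pair had r = 0.15 (exact permutation p = 0.720, adjusted 0.787) and rho = -0.05.

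**Figure D5:**
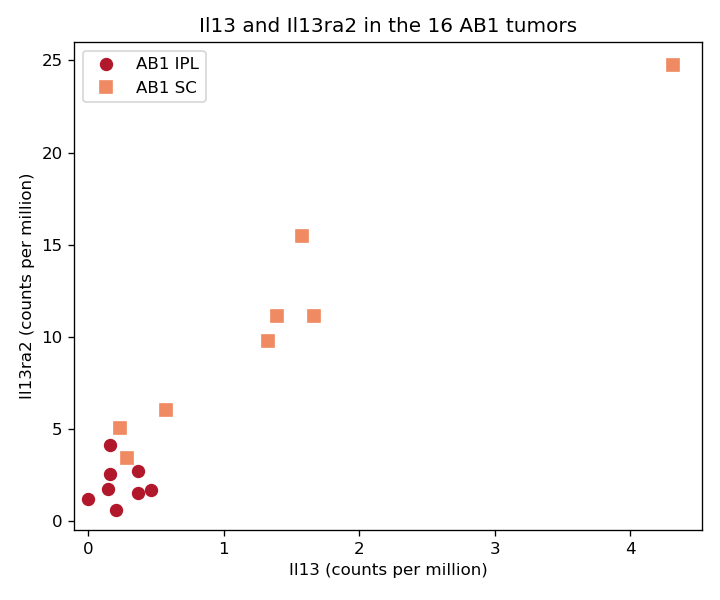
Il13 against Il13ra2 in CPM in the 8 AB1 IPL (circles) and 8 AB1 SC tumors (squares). The SC tumors spread from 0.236 to 4.31 CPM of Il13 and from 3.43 to 24.8 CPM of Il13ra2, while the IPL tumors cluster below 0.467 and 4.09.

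Il4 and Il4ra were the other pair past the threshold, again in AB1 SC tumors, with r = 0.907 (exact permutation p = 0.000918, adjusted 0.0486) and rho = 0.833 (exact p = 0.0154, adjusted 0.181). Without the 2 tumors farthest from the Il4 median r was 0.78. No pair passed on the adjusted Spearman p, and none of the 28 pairs in AB1 IPL or the 21 pairs in each AE17 group passed on the adjusted Pearson p. For Il33 and Il1rl1, ligand and receptor, no group passed after adjustment. Their r was 0.18 in AB1 IPL (exact permutation p = 0.640, adjusted 0.738), 0.73 in AB1 SC (exact p = 0.0420, adjusted 0.139), 0.73 in AE17 IPL (exact p = 0.0397, adjusted 0.139) and -0.56 in AE17 SC tumors (exact p = 0.149, adjusted 0.292). Spearman rho was 0.0238, 0.69, 0.55 and -0.26 in that order. Without the 2 tumors farthest from the Il33 median r was 0.16, 0.58, -0.14 and -0.502, and on the lane with the most mice it was 0.61 in AB1 SC (6 tumors) and 0.92 in AE17 IPL (5 tumors).

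The genes most like each member were ranked by Pearson r across 32 tumors of log2 CPM with the group means subtracted, over 13982 genes of at least 1 CPM. These tumors share library depth and makeup, so the values describe and are not tests. Il33 was nearest to the complement genes C4a (r = 0.900) and C4b (0.897), a near-identical pair whose reads may be split in counting, and to Hpse (0.867), the heparanase gene. Il1rl1 was nearest to Spa17 (0.680), the growth factor gene Fgf7 (0.668) and Stc2 (0.661). In the ranking for Il33, Il1rl1 came 5200th, with r = 0.139. Gata3 was nearest to the lymphocyte genes Ltb (0.785) and Icos (0.781) and to Rinl (0.779).

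Among the receptor chains, Il4ra was near to the myeloid gene Fcgr3 (0.875) and to Man1c1 (0.868). Il13ra2 was nearest to Il1r1 (0.712), the IL-1 receptor gene, then Wipf1 (0.686) and D6Wsu163e (0.672). Il13ra1 was nearest to Chmp1b (0.915), Nptn (0.914) and Adam9 (0.905), and Il4 to Nck1 (0.835), Dse (0.835) and 4930470G03Rik (0.834). AB1 IPL 4 stood apart from its group in both Il4 and Il13ra1, and its part in these values was not tested. Within AB1 IPL the r of Il4 with Il13ra1 was 0.93, and 0.34 without the 2 tumors farthest from the Il4 median.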

How the data were processed

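Tumor poly(A) RNA was sequenced as 50 bp single-end reads, base calls were made with bcl2fastq 1.8.4 and reads aligned with HISAT2 2.0.4, as named in the submitters' processing notes. The authors deposited raw gene counts for 32 tumors. Of the 39676 gene identifiers, 39495 match the GENCODE M21 annotation of GRCm38 without the version number and 36719 with it. The settings for strand and for reads with several matches were not given in the sources used here.

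Counts were filtered with filterByExpr, TMM-normalized and tested with the edgeR 4.0.16 quasi-likelihood test (R 4.3.3), two-sided, within each model for IPL against SC and over 4 groups for the interaction and the models, with Benjamini-Hochberg adjustment over all genes tested and a threshold of 0.05. DESeq2 1.42.0 and limma 3.58.1 were alternatives. Exact permutation tests used log2 CPM with a prior count of 2 over genes with at least 10 counts. Totals of 15432258 to 20649645 counts limit precision for Il5, Il13 and, in AE17, Il13ra2. The scripts were tested on simulated data. The genes and the lists were chosen with earlier results of these data known. Named were every member, up to 3 genes per list with the largest called change in each model, up to 3 markers of a list in listed order, and the 3 genes most like each member of at least 1 CPM while Itgax and Nmur1 were named after their values were seen. 1 gene that the rule names is not reported here. The labels number the tumors of a group without naming animals, so p-values measure the spread between these samples, which may in part be technical. Without reads, isoforms were not separated. Plots were made with matplotlib 3.10.9.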

Additional observations from a re-analysis of the deposited data

Results flagged for a closer look

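Of 34 sets, each 1 gene in 1 group of 8 tumors, 5 held a single tumor lying far from the rest on the log2 scale. For independent sets of normal values about 1 in 20 would be flagged. These sets share tumors, so that rate does not hold for them, and Il4 and Il13ra1 were flagged in the same library. Il33 in AB1 IPL 2 stood at 77.38 CPM, with the next tumor of its group at 24.33, and the mesothelial markers of this tumor summed to 76.1 CPM against at most 3.25 in the other AB1 IPL tumors. AB1 IPL 2 also had the highest fibroblast, macrophage and endothelial sums of its group and the lowest skeletal muscle sum. Il4 in AB1 IPL 4 stood at 0.5782 CPM, with the next tumor at 1.517. In the same tumor Il13ra1 was 16.29 CPM, with the next at 38.56. Il13ra1 in AE17 SC 8 was 149.8 CPM, with the next at 230.2. Il13ra2 in AE17 IPL 3 was 0.0 CPM (0 counts), with the next at 0.2354 (4 counts). At counts this low the size of the gap depends on the log2 scale and its prior count of 2. The part that mesothelial or other host tissue had in the Il33 value was not tested.

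The site effect on Il13ra1 differed between the models by a test of the difference itself, AB1 minus AE17, of -1.003 on the log2 scale (adjusted p = 0.00139, edgeR). That test called 20.5% of all genes. With lane in the model the difference was -1.03 and did not pass (adjusted p = 0.0880).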

How the results depend on the processing

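No called log2 difference of a member changed sign under the alternatives run. The 5 members called in AB1 became 3 when a log2 difference of at least 1 was also asked, 1 with lane as a covariate and 0 within 1 lane, and ran from 4 to 6 without 1 mouse. The 1 member called in AE17 became 0 at an adjusted p under 0.01, with a log2 difference of at least 1, without a filter, with lane as a covariate and within 1 lane, and ran from 0 to 1 without 1 mouse. It remained 1 without the 3 libraries least like their group, an alternative chosen after seeing the data, which gave 7 in AB1. The 1 interaction called became 2 with limma voom, 3 with the replicate block, 0 with lane and 2 without those 3 libraries, and ran from 1 to 3 without 1 mouse. Between models 4 to 6 members were called in SC and 6 to 7 in IPL tumors without 1 mouse, and 3 in IPL with a log2 difference of at least 1. The replicate numbers did not pair the mice: deviations of same-numbered AB1 mice had a mean r of -0.118, 0 of 8 correlating best with their own number, and those of AE17 mice 0.0725, 3 of 8. The block kept 5 calls in AB1 and 1 in AE17. Lane, nearly tied to site and not shared between the models at either site, limits every site and model difference, and low counts limit Il5 and Il13.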
